A study of Rattus norvegicus with 30 samples.

Results

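The ipsilateral thalamus was compared between rats with traumatic brain injury (TBI) and sham-operated rats, using the thalamic libraries alone, which are 10 of the 30 libraries of a study that also sequenced the perilesional cortex and the dentate gyrus part of the hippocampus. The members are the 5 thalamic libraries of rats 6 to 10, which received TBI, and the 5 of rats 1 to 5, which were sham-operated, and no library was left out. All were adult male Sprague-Dawley rats, and 1 library of poly-A mRNA was made per rat, so that no rat is in both groups. TBI was induced by lateral fluid-percussion injury (FPI), a short pressure pulse (3.32 atm per the labels) against the intact dura of the left parietal lobe. The sham-operated rats received the same craniectomy and the same anesthesia, a mixture with sodium pentobarbital and chloral hydrate, without the pulse. Both groups were decapitated under isoflurane at 3 months after the operation, and the thalamus was dissected from 2 coronal slices of 2 mm, so all nuclei within the slices were pooled into 1 sample per rat. The model injures the cortex directly, and the thalamus was sampled whole whether or not a nucleus was affected.

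The thalamus relays sensory and motor signals to the cortex, and its relay neurons send their axons into the cortical area that a lateral impact damages. Loss of that target is known to be followed by retrograde degeneration of relay neurons, by proliferation of microglia and by a lasting astrocytic scar in the matching nuclei, which lie far from the impact. The thalamus after lateral FPI is therefore a standard example of secondary damage, and it is also a node of the thalamocortical circuits in which seizures spread.

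The deposited table gives the reads counted on 26404 Ensembl genes by identifier. The table of rat genes used here paired 0 of these identifiers with a symbol, so genes are described by counts, levels and the 4 identifiers with the largest changes, and the labelled tissue was not checked against named markers. Gene positions and sequences were not used here for the same reason. The libraries held 21992859 to 31799879 counts each, with a count for 19327 to 19813 genes, and the 10 most counted genes took 6.32% to 9.13% of the counts in sham and 7.53% to 10.5% after TBI.

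Several libraries stood apart before any test. The library of TBI rat 6 lay near the sham libraries. Its root mean square difference over the 16605 tested genes was 0.30 on the log2 scale from the mean of the sham libraries and 0.45 from the mean of the other TBI libraries. TBI rats 7, 8, 9 and 10 lay 0.55, 0.60, 0.52 and 0.47 from the sham mean and 0.36, 0.42, 0.45 and 0.35 from their own group. The library of rat 6 was also rarely extreme. It had the highest value of the 10 libraries for 416 genes and the lowest for 589, whereas each of the other libraries had the highest value for 924 to 2578 genes and the lowest for 986 to 2558. Sham rat 2 was the most extreme, with the highest value for 2578 genes and the lowest for 2534. The median SD over genes among sham libraries was 0.25 on the log2 scale with all 5 and 0.19 without rat 2, while leaving out another sham rat gave 0.25 to 0.26. Among TBI libraries it was 0.27 with all 5 and 0.24 without rat 6, and also 0.24 without rat 9. Sham rat 1 held the most RNA of genes enriched in the neighboring areas, as given with those genes.

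How far each rat had moved from sham was read with a position score. For each library in turn, the difference between the mean TBI and the mean sham profile was formed from the other 9 libraries over all tested genes, and the left-out library was projected on it, so that 0 is the mean of the other sham libraries and 1 the mean of the other TBI libraries. In the thalamus, the score was 0.405 in sham rat 1, 0.361 in rat 2, -0.0366 in rat 3, 0.247 in rat 4 and 0.0165 in rat 5. After TBI it was 0.209 in rat 6, 1.20 in rat 7, 1.26 in rat 8, 0.724 in rat 9 and 0.841 in rat 10. Rats 7, 8, 9 and 10 were above every sham rat, and rat 6 was within the sham range and below sham rats 1, 2 and 4. The groups therefore overlapped, at 0.199 ± 0.200 (SD, n = 5) in sham and 0.846 ± 0.423 (SD, n = 5) after TBI. The sham mean enters both the difference and the distance projected on it, which can raise the scores of libraries like sham above 0. On the cortical difference described below, which holds no thalamic value, the sham scores were 0.0045 ± 0.213 (SD, n = 5). A score is therefore to be read against the sham range rather than against 0.

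The cortex of the same rats gave another picture for rat 6. With the same score computed from cortical libraries, rat 6 had 1.23, the highest value of all, and rats 7, 8, 9 and 10 had 0.880, 0.901, 0.916 and 0.627. The sham rats ranged from -0.0702 to 0.230 in the cortex, so the groups did not overlap there. The rat nearest to sham in the thalamus was thus the rat farthest from sham in the cortex. When thalamic libraries were projected on the cortical difference of the other 9 rats, where 1 is the full cortical difference, rat 6 again lay within the sham range, at 0.213, with sham rats from -0.220 to 0.318. Rats 7, 8, 9 and 10 had 0.692, 0.814, 0.411 and 0.449, all above every sham rat. This axis uses no thalamic value of TBI rats, although it comes from the same animals.

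**Figure D1:**
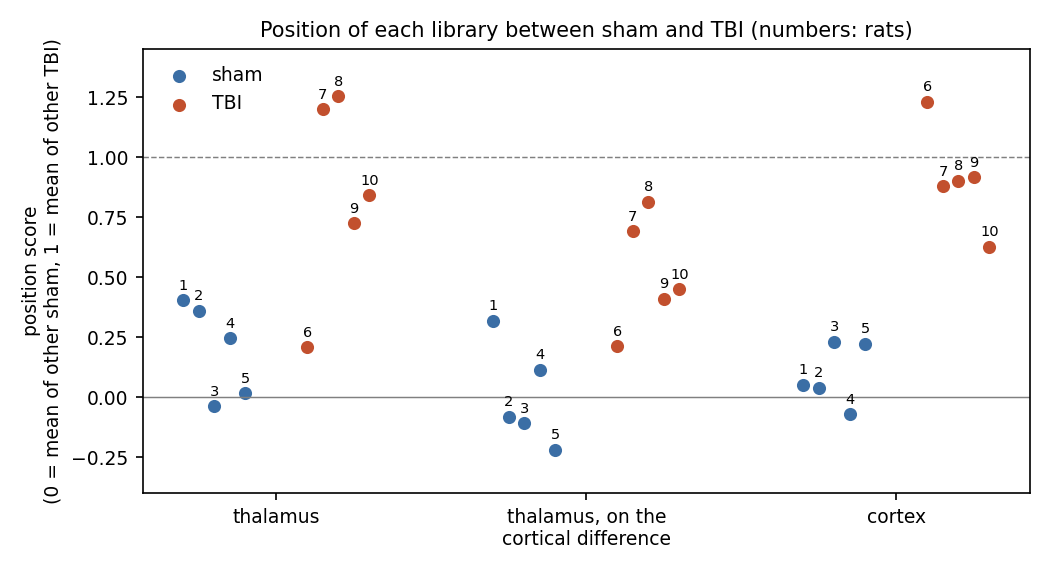
Position score (no unit) of each library between the mean of the other sham libraries (0) and the mean of the other TBI libraries (1), for the thalamus, for the thalamus projected on the cortical difference (where 1 is the full cortical difference), and for the cortex; points are libraries, numbers are rats, sham in blue and TBI in red. Rat 6 lies within the sham range in the thalamus (0.209) and above every other rat in the cortex (1.23).

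At 3 months after TBI, 626 genes had risen and 308 had fallen in the thalamus at an adjusted p under 0.05, which is 3.77% and 1.85% of the 16605 genes tested (edgeR's quasi-likelihood test with Benjamini-Hochberg adjustment over all tested genes, 5 libraries against 5). Rises were larger than falls. The median log2 fold change was 0.92 among the risen genes, with 262 above 2-fold and 34 above 4-fold, and -0.59 among the fallen genes, with 18 beyond 2-fold and 0 beyond 4-fold. The median over all tested genes was -0.0016, a value that the scaling of the libraries holds near 0. The ranges of the TBI and the sham rats did not overlap for 313 of the risen and 192 of the fallen genes. The same held for 897 of all tested genes, or 5.4%, with 457 higher (2.75%) and 440 lower (2.65%).

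**Figure D2:**
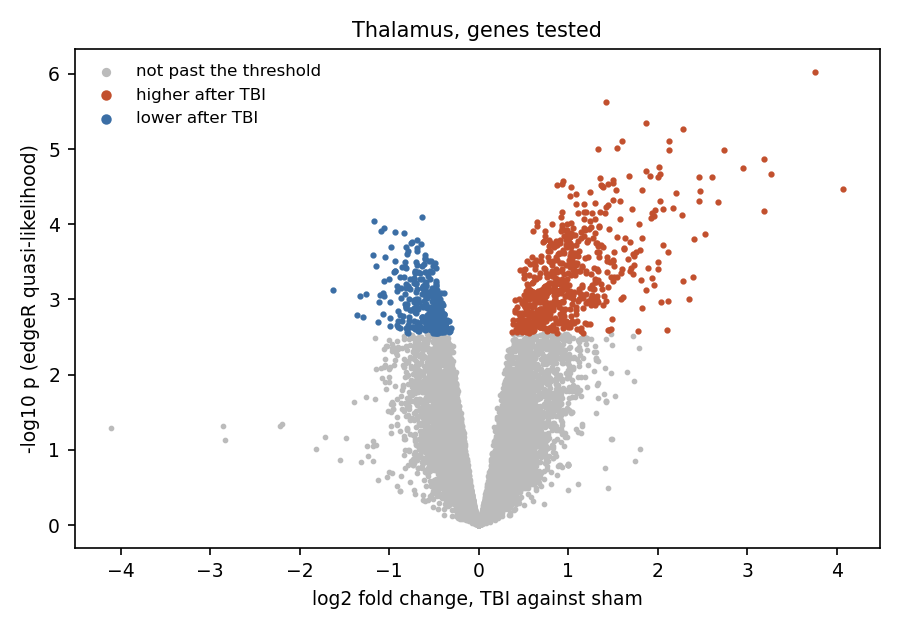
log2 fold change of TBI against sham (horizontal) and -log10 of the unadjusted p from edgeR (vertical) for each gene tested in the thalamus. The 626 risen genes (red) reach a log2 fold change of 4.07, and the 308 fallen genes (blue) go no lower than -1.63.

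The risen and fallen genes sat at different levels. The fallen genes had a median level of 66.5 CPM (counts scaled to a common library total) over the 10 libraries and the risen genes one of 17.1 CPM, where the median of all tested genes was 14.5 CPM. Among the 1949 genes above 100 CPM, 126 fell (6.46%) and 106 rose (5.44%). Among the 5597 genes between 1 and 10 CPM, 30 fell (0.536%) and 203 rose (3.63%). In this edgeR fit, falls thus exceeded rises among the most abundant transcripts only. The balance depended on the tool, since over all genes voom gave 1350 falls and 1342 rises, and one fit for 3 areas 1796 and 1661. The error also differs with level, since the median standard error of the log2 fold change was 0.22 at 1 to 10 CPM and 0.13 above 100 CPM, and its part in the counts was not tested. The median log2 fold change of all genes in a level class went from 0.16 below 1 CPM to 0.08, -0.04 and -0.11 in the classes above it. In rat 6 these medians were 0.08, 0.02, -0.01 and -0.03. In rats 7, 8, 9 and 10 they were 0.20, 0.20, 0.13 and 0.20 below 1 CPM, and 0.08, 0.07, 0.13 and 0.13 at 1 to 10 CPM. They were -0.04, -0.05, -0.04 and -0.04 at 10 to 100 CPM, and -0.106, -0.083, -0.161 and -0.145 above 100 CPM.

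**Figure D3:**
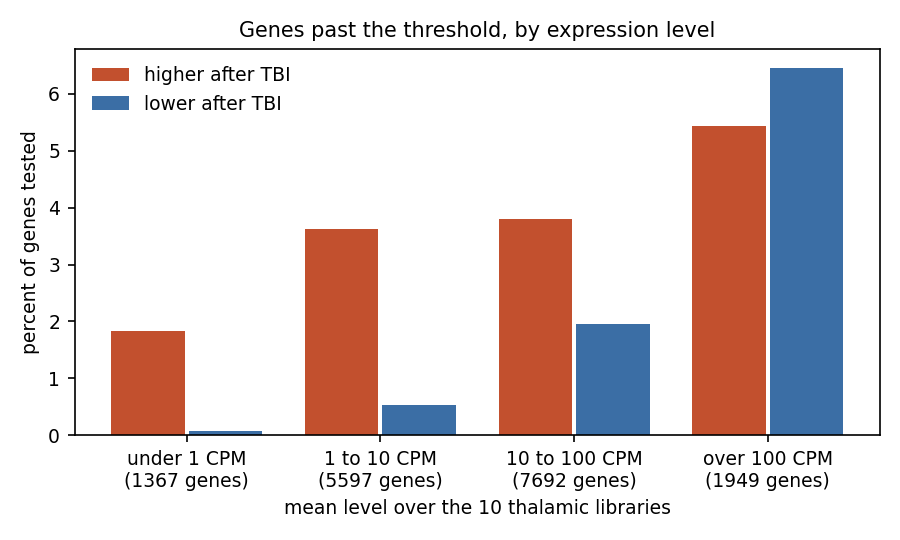
Percent of tested genes that rose (red) or fell (blue) after TBI at an adjusted p under 0.05, by mean level over the 10 thalamic libraries. The share that fell goes from 0.0732% below 1 CPM to 6.46% above 100 CPM.

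As a share of the mRNA, the change was large. The risen genes together held 38732 to 47613 CPM in the sham rats. After TBI they held 51535 CPM in rat 6, 98226 in rat 7, 93997 in rat 8, 75447 in rat 9 and 75810 in rat 10. The fallen genes held 70102 to 78664 CPM in sham, and 64141, 41806, 43089, 50871 and 48022 CPM in rats 6, 7, 8, 9 and 10. These sums describe genes chosen by the same difference and are no further test. Whether fewer cells of a type or less RNA per cell lie behind a lower level cannot be told apart in tissue samples. Of the risen genes, 64 had a sham mean below 1 CPM, and 58 of these reached a TBI mean of at least 1 CPM. Only 1 fallen gene had a TBI mean below 1 CPM, so most falls were partial.

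Rat by rat, the risen genes lay a median of 0.28 above the sham mean on the log2 scale in rat 6, 1.17 in rat 7, 1.11 in rat 8, 0.85 in rat 9 and 0.91 in rat 10. For the fallen genes the medians were -0.22, -0.82, -0.76, -0.53 and -0.62. Rats 7 and 8 thus had the largest shifts in both directions and rat 6 the smallest. In rat 6, 306 of the 626 risen genes (48.9%) and 115 of the 308 fallen genes (37.3%) were within the range of the sham libraries. In rats 7, 8, 9 and 10, only 1, 2, 13 and 2 of the risen genes and 0, 0, 3 and 0 of the fallen genes were.

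The number of genes past the threshold rested on single rats. Without rat 6, edgeR called 1333 genes higher (7.99% of 16684 tested) and 1088 lower (6.52%). All 934 genes called with all rats were among them, and 1487 genes were added. The median log2 fold change of the 626 risen genes went from 0.92 to 1.06 without rat 6, and that of the 308 fallen genes from -0.59 to -0.70. Without rat 3, 5, 7 or 8, edgeR called 0 genes, with 3137, 3281, 2971 and 3037 genes at an unadjusted p under 0.05. These counts of 0 followed from adjusted p-values just above the threshold, since the smallest edgeR adjusted p was 0.058, 0.0607, 0.053 and 0.0545 in these 4 fits, and 865, 783, 624 and 748 genes had an adjusted p under 0.10. DESeq2 called 1165, 1179, 1002 and 1118 genes without the same rats. Without rat 10, edgeR called 66 genes higher and 1 lower. Without rat 4 it called 393 and 75, without rat 1 it called 553 and 150, and without rat 9 it called 422 and 128. Without rat 2 the counts were 593 and 454.

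The 4 identifiers below are those with the largest rise and fall among the 297 risen and 191 fallen genes with at least 1 CPM whose groups did not overlap.

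ENSRNOG00000016179 had the largest rise. Its level was 0.356, 0.256, 0.340, 0.116 and 0.376 CPM in sham rats 1 to 5, and 0.500, 7.88, 8.98, 2.12 and 5.18 CPM in TBI rats 6 to 10. All TBI rats were above all sham rats, but rat 6 by little, with 16 counts where the sham rats had 3 to 11. The log2 fold change was 4.07 (standard error 0.66, edgeR adjusted p = 0.0166). It was 3.74 to 4.37 with single rats left out, with edgeR adjusted p up to 0.0607. In the cortex of the same rats, ENSRNOG00000016179 had 0.483 ± 0.151 CPM (SD, n = 5) in sham and 0.469 ± 0.0327 CPM (SD, n = 5) after TBI, with a log2 fold change of -0.04 (standard error 0.25, edgeR adjusted p = 0.957). The change in the thalamus minus that in the cortex was 4.05 on the log2 scale (standard error 0.78, adjusted p = 0.0174 for the interaction of area and treatment in edgeR). With the rat as a block this interaction was 3.65 (edgeR adjusted p = 0.0495), and without rat 1, 2, 3, 4 or 7 its adjusted p was 0.0569, 0.0587, 0.0605, 0.0691 and 0.0554 in edgeR.

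ENSRNOG00000024000 had the second largest rise, and the smallest adjusted p of all thalamic genes. Its level was 1.59, 0.402, 1.15, 1.16 and 1.30 CPM in sham rats 1 to 5, and 3.72, 21.4, 17.2, 17.3 and 16.2 CPM in TBI rats 6 to 10. The 4 TBI rats other than rat 6 were close together, and rat 6 lay between them and the sham rats. The log2 fold change was 3.75 (standard error 0.44, edgeR adjusted p = 0.0157), and 4.01 without rat 6 (adjusted p = 1.41e-05). With single rats left out it was 3.53 to 4.01, and in 4 of the 10 fits the edgeR adjusted p was above 0.05, reaching 0.0607. Unlike the first identifier, ENSRNOG00000024000 also rose in the cortex, where its mean was 0.664 ± 0.0719 CPM (SD, n = 5) in sham rats and 5.16 ± 0.821 CPM (SD, n = 5) after TBI, with a log2 fold change of 2.94 (standard error 0.17, edgeR adjusted p = 1.32e-07). In the cortex rat 6 had the highest level, 6.10 CPM. The responses in the areas differed by 0.77 on the log2 scale (standard error 0.50), which did not pass the test (edgeR adjusted p = 0.730 for the interaction).

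Of the fallen genes that met these conditions, ENSRNOG00000001251 had the largest fall. Its level was 4.37, 16.3, 8.33, 5.62 and 8.32 CPM in sham rats 1 to 5, and 3.81, 2.51, 3.72, 4.19 and 2.94 CPM in TBI rats 6 to 10. Sham rat 2 lay far above the rest, and sham rat 1 was just above TBI rat 9. The log2 fold change was -1.33 (standard error 0.31, edgeR adjusted p = 0.0308), and it was between -1.49 and -0.96 with single rats left out, with edgeR adjusted p up to 0.0938. In contrast to the risen identifiers, rat 6 was among the other TBI rats here. In the cortex ENSRNOG00000001251 had only 0.0282 to 0.343 CPM, from 1 to 10 counts per library, and it was not tested there alone. Its cortical mean was 0.196 ± 0.105 CPM (SD, n = 5) in sham and 0.111 ± 0.0654 CPM (SD, n = 5) after TBI. The interaction of area and treatment was -0.511 on the log2 scale (standard error 0.74). It did not pass the test (edgeR adjusted p = 0.934), so a response particular to the thalamus was not shown.

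ENSRNOG00000002459 had the second largest fall, from 4.79, 3.65, 4.63, 3.45 and 5.06 CPM in sham rats 1 to 5 to 1.69, 0.703, 1.11, 3.27 and 2.15 CPM in TBI rats 6 to 10. Rat 6 was again within the range of the other TBI rats, and rat 9 was nearest to sham. The log2 fold change was -1.29 (standard error 0.33, edgeR adjusted p = 0.0399). In 7 of the 10 fits without 1 rat its edgeR adjusted p was 0.05 or more, reaching 0.106. In the cortex ENSRNOG00000002459 had 0.0565 to 0.146 CPM, from 2 to 4 counts per library. Its interaction of area and treatment was -1.355 (standard error 0.70) and did not pass the test either (edgeR adjusted p = 0.581). Both fallen identifiers belong to genes with a far higher level in the thalamus than in the cortex. The group of thalamus-enriched genes was therefore examined as a whole.

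**Figure D4:**
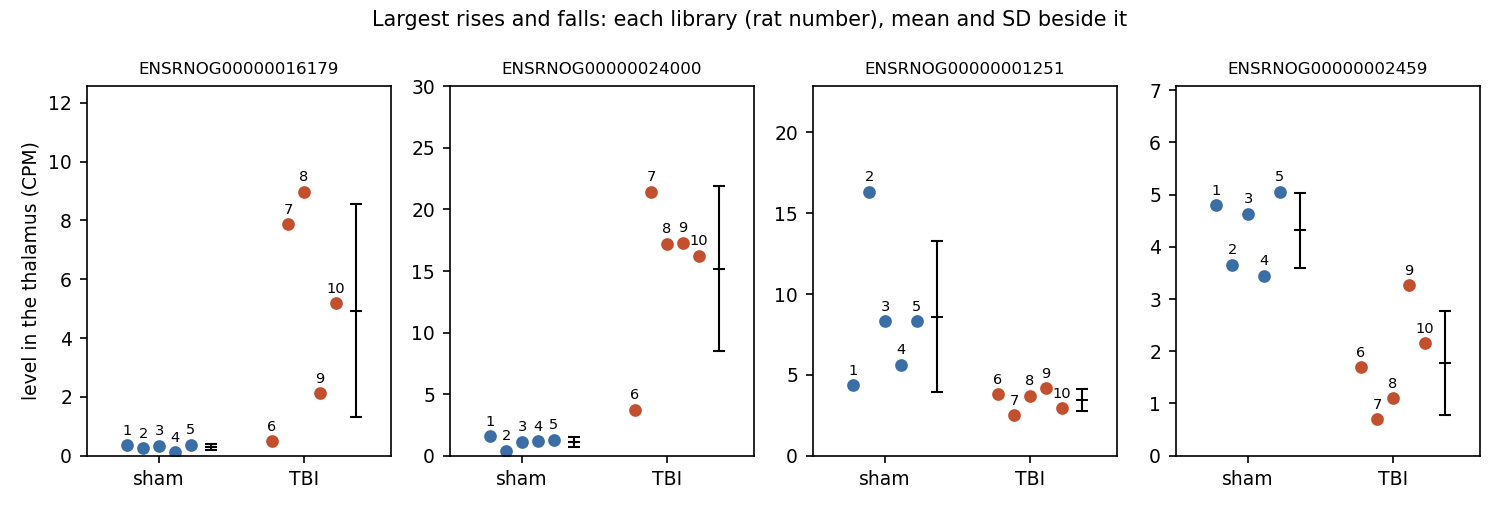
Level in CPM in each thalamic library of the identifiers with the largest rises (left panels) and falls (right panels); points are libraries with the rat number, sham in blue and TBI in red, and the bar beside each group is the mean and SD (n = 5). Rat 6 is the lowest TBI rat for both risen identifiers (0.500 and 3.72 CPM), though above every sham rat, and among the TBI rats for both fallen ones (3.81 and 1.69 CPM).

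A larger share of the genes enriched in the thalamus fell than of all tested genes. These genes were defined by a mean level over all 10 thalamic libraries at least 4-fold above the mean of the cortical and of the hippocampal libraries, on log2 CPM with a prior count of 3, which understates the fold of genes with few counts. All 10 hippocampal libraries were used, although the paper's methods leave out 2 of the sham ones for a low share of aligned reads. With the hippocampal mean taken over the TBI rats alone, 38 of 290 genes fell (13.1%) and 4 rose. The rule does not use the difference between TBI and sham, and it was chosen after the data were seen. The paper's methods state another instrument and longer reads for the thalamus than for the other areas, while the labels name the same instrument for all, so area and sequencing cannot be told apart in this definition. Of 293 such genes, all tested, 38 fell (13.0%) and 4 rose (1.37%), where 1.85% of all tested genes fell and 3.77% rose. The median log2 fold change was -0.14 over the 293 genes and -0.0016 over all tested genes. The median of the 38 that fell was -0.70, and 7 of them fell more than 2-fold. They made up 12.3% of all fallen genes of the thalamus.

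This excess held at each level where falls could be counted. Of 32 thalamus-enriched genes above 100 CPM, 14 fell (43.8%), against 6.46% of all genes at that level. Of 125 between 10 and 100 CPM, 20 fell (16%, against 1.96%), and of 122 between 1 and 10 CPM, 4 fell (3.28%, against 0.536%). Below 1 CPM, 0 of 14 fell, where 1 gene of 1367 fell in all. With an enrichment of at least 8-fold, 14 of 124 genes fell (11.3%) and 1 rose, and with 2-fold, 75 of 981 fell (7.65%) and 66 rose. Of all tested genes, 1.85% fell and 3.77% rose, so the share that fell was above that of all genes with 2-fold enrichment too. Falls outnumbered rises by far from 4-fold enrichment on, and with 2-fold the counts in the 2 directions were about even.

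Summed over the 293 genes, the thalamus-enriched RNA was 15662, 17181, 19311, 17567 and 19913 CPM in sham rats 1 to 5, and 15479, 12109, 14025, 14347 and 14447 CPM in TBI rats 6 to 10. Every TBI rat was below every sham rat, but sham rat 1 and TBI rat 6 were close to each other. The means were 17927 ± 1708 CPM (SD, n = 5) and 14081 ± 1230 CPM (SD, n = 5). No single gene held more than 7.38% of the sum, but most of the difference lay in the 38 fallen genes, which held 7753 ± 678 CPM (SD, n = 5) in sham and 4791 ± 1137 CPM (SD, n = 5) after TBI and were chosen for that fall. The other 255 genes held 10174 ± 1064 CPM (SD, n = 5) in sham and 9291 ± 549.5 CPM (SD, n = 5) after TBI. Their ranges, 8631 to 11193 CPM in sham and 8600.5 to 10025 CPM after TBI, overlapped. Since the 38 genes were taken out for their fall, a smaller difference in the rest was set in advance and is no test. The fall did not touch the whole group, since 165 of the 293 genes (56.3%) had a log2 fold change below 0, where 50.2% of all tested genes had. This share was 64.3% among the hippocampus-enriched and 39.3% among the cortex-enriched genes described below. The median log2 difference from the sham mean over the 293 genes was -0.15, -0.21, -0.09, -0.13 and -0.09 in rats 6 to 10. It was -0.17 in sham rat 1 and went from -0.04 to 0.11 in sham rats 2 to 5. In rat 6, 13 of the 38 fallen genes were within the sham range. Without rat 6, 61 thalamus-enriched genes were lower (20.8%, where 6.52% of all tested genes were lower) and 9 were higher, and all 38 remained. The number also rested on other rats. edgeR called 0 thalamus-enriched genes lower without rat 3, 5, 7 or 8, where it called 0 genes of any kind, 1 without rat 10, 13 without rat 4 and 23 without rat 9. The median over the 293 genes, -0.14 with all rats, moved to -0.05 without sham rat 3 and was between -0.17 and -0.11 without any other single rat.

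The summed levels of genes enriched in the neighboring areas differed between rats in the thalamic libraries. Whether this RNA came from tissue of those areas was not tested. The 98 tested genes enriched at least 4-fold in the hippocampus summed to 2145 CPM in sham rat 1 and 1731 CPM in TBI rat 6, and to 1044 to 1377 CPM in the other 8 rats. The 56 tested cortex-enriched genes summed to 817 CPM in sham rat 1, to 152 to 209 CPM in the other sham rats, and to 406, 308, 416, 177 and 217 CPM in TBI rats 6 to 10. Rat 6, which lay near sham, and rat 1, the sham rat with the lowest thalamus-enriched sum, were therefore the rats with the most hippocampus-enriched RNA, and the part of this in their position was not tested. Without rats 1 and 6 together, 62 thalamus-enriched genes were lower (21.2%) and 7 higher, where 1243 of all 16562 tested genes were higher and 846 lower. With all 10 rats, 1 hippocampus-enriched gene fell (1.02%) and 0 rose, and 1 cortex-enriched gene fell (1.79%) and 2 rose (3.57%), where 1.85% of all genes fell and 3.77% rose.

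**Figure D5:**
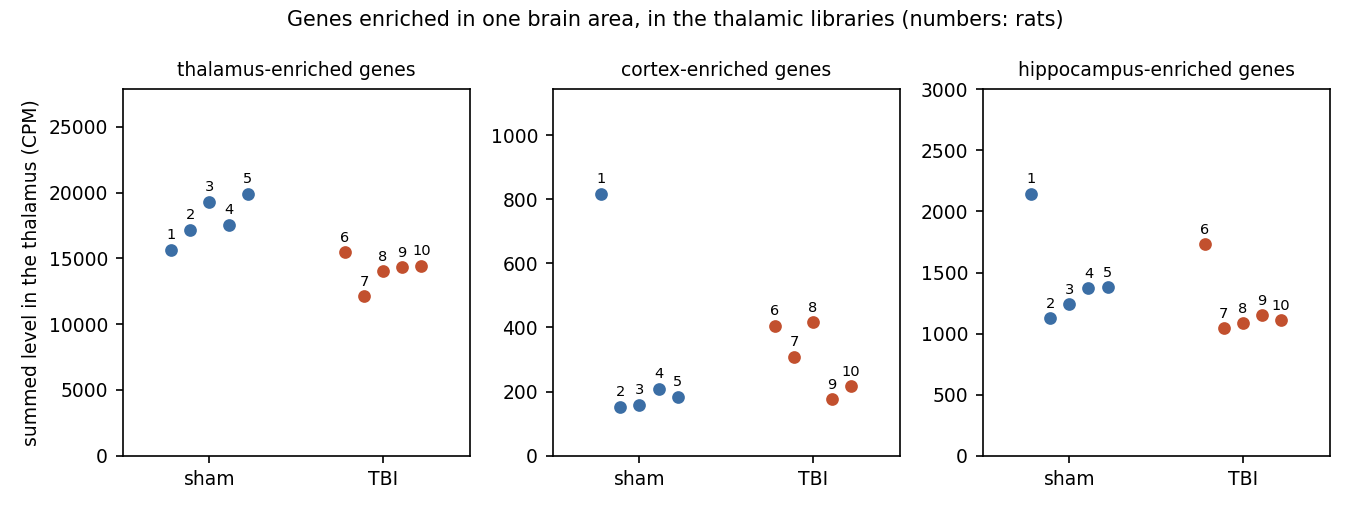
Summed level in CPM, in each thalamic library, of the tested genes enriched at least 4-fold in the thalamus (293 genes), the cortex (56) and the hippocampus (98); points are libraries with the rat number, sham in blue and TBI in red. Thalamus-enriched RNA is lower in every TBI rat than in every sham rat, and hippocampus-enriched RNA is highest in rats 1 and 6.

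The 38 fallen thalamus-enriched genes were also looked up in the cortex of the same rats, where 34 of them were tested. Of these, 16 were lower after TBI (47.1%) and 4 higher (11.8%) at an edgeR adjusted p under 0.05. Of all 304 fallen thalamic genes tested in the cortex, 195 were lower there (64.1%) and 7 higher (2.3%), and of all cortical genes 11.6% were lower and 14.2% higher. Whether the enriched genes differ in this from the other fallen genes was not tested. As a group, 180 thalamus-enriched genes were tested in the cortex, and 30 were lower (16.7%) and 35 higher, with a median log2 fold change of 0.11. In the thalamus the same 180 genes had a median of -0.24. They are expressed at lower levels in the cortex than in the thalamus by definition. The difference between the areas was tested per gene, by the interaction, in which 13 of the 293 genes (4.44%) were past the threshold, where 0.44% of all genes were. With the rat as a block 12 were past it, of which 10 were among the 13.

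Most genes that changed in the thalamus had changed the same way in the perilesional cortex. The cortical test uses other libraries of the same rats. Of the 2351 genes that had risen in the cortex and were tested in the thalamus, 505 rose in the thalamus (21.5%) and 7 fell. Of the 1946 genes that had fallen in the cortex, 195 fell in the thalamus (10%) and 6 rose. Among the 11911 genes not past the threshold in the cortex, 111 rose (0.932%) and 102 fell (0.856%), both below the shares over all tested genes (3.77% and 1.85%). The 505 and 195 shared genes became 914 and 615 without rat 6, 460 and 274 without rat 2, 461 and 96 without rat 1, 320 and 44 without rat 4, 357 and 70 without rat 9, 63 and 0 without rat 10, and 0 without rat 3, 5, 7 or 8. With all rats they were 823 and 440 with DESeq2, 884 and 726 with voom, and 1063 and 890 with one fit for 3 areas. The counts of 0 were those of edgeR, which called 0 thalamic genes of any kind in these fits. DESeq2 gave 585 and 241 without rat 3, 574 and 241 without rat 5, and 524 and 208 without rat 7. It gave 544 and 237 without rat 8, and 635 and 285 without rat 10.

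Per rat, the genes that rose in the cortex lay a median of 0.14 above the sham mean in the thalamus of rat 6, and 0.57, 0.69, 0.34 and 0.45 above it in rats 7, 8, 9 and 10. The sham rats ranged from -0.13 to 0.12 (rat 1). Rat 6 was above every sham rat here, by a small distance. The genes that fell in the cortex lay at -0.06 in rat 6 and at -0.38, -0.47, -0.30 and -0.30 in the other TBI rats, where sham rat 2 had -0.08. The genes not past the threshold in the cortex lay between -0.03 and 0.04 in all 10 rats.

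Genes past the threshold in the thalamus and not in the cortex were examined with the test of the difference. Of the 926 thalamic genes past the threshold that were tested in the cortex, 213 were not past it there, of which 111 had risen and 102 had fallen in the thalamus. For 179 of these 213 the cortical change had the same sign. The other 8 called thalamic genes were not tested in the cortex. Of the 213, 8 were among the genes whose response differed between the areas by the interaction of area and treatment. In that test, 78 of 17745 genes had an adjusted p under 0.05 (0.44%), and 49 with the rat as a block, of which 43 were shared with the 78. The 78 genes became 43 without rat 3, 35 without rat 4, 44 without rat 5, 40 without rat 7 and 47 without rat 9.

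Among genes with different responses, those higher in the cortex and lower in the thalamus were the most frequent. Of the 78 genes, 44 were higher after TBI in the cortex and lower in the thalamus, 12 were higher in the thalamus and lower in the cortex, 22 were higher in both and 0 were lower in both, by the sign of the log2 fold change. The change was larger in the thalamus for 21. In the tests of each area alone, 26 of the 78 were past the threshold in the thalamus and 68 in the cortex, and 13 were past it in both with opposite signs. Beside ENSRNOG00000016179, the genes of this group were not named here.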

How the data were processed

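mRNA of the thalamus of 5 sham-operated rats and 5 rats with TBI was analysed, with cortical and hippocampal libraries of the same rats for comparison. Reads were mapped by the authors with STAR against Rnor_5.0, as the submitters' processing notes state, and the deposited tables hold unnormalized counts of reads per Ensembl gene. The counting tool and the use of strand are not given in the sources used here, so reads of overlapping genes and near copies cannot be told apart (107 tested genes had counts identical to another, of which 2 were past the threshold). Columns were assigned through the rat number in their name and the area of their table, with the treatment from the labels, and 0 columns were left unused.

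The counts were analysed in R 4.3.3 with edgeR 4.0.16: genes were kept by filterByExpr (minimum count 10, minimum total count 15), scaled by TMM and tested with the quasi-likelihood F test (robust option), with p-values adjusted after Benjamini and Hochberg and a threshold of 0.05. Standard errors are the absolute log2 fold change divided by the square root of F. A prior count of 3 was added for log2 CPM. The alternatives were DESeq2 1.42.0, RLE scaling, no filter, limma 3.58.1 voom with quality weights, one fit for 3 areas, each rat left out, and a threshold of 0.10. The last of these, DESeq2 with rats left out, and the definitions of area-enriched genes were chosen after seeing the data. The counts of genes shared with the cortex were not planned in advance either. The procedures were tested on simulated data.

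The rule for named genes asked for a symbol. Since 0 identifiers matched one, the 2 largest rises and 2 largest falls under its other conditions are given, and 47 lists of marker and pathway genes were not analysed here. The members and lists were chosen with earlier results of these data known. Each rat gave both cortex and thalamus, so the rat pairs these libraries. The correlation of deviations of the same rat had a mean of 0.0578 (lowest -0.112, highest 0.255). Pairs of libraries within a group differed by more than sampling noise (the lowest chi-square divided by its degrees of freedom was 23.9).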

Additional observations from a re-analysis of the deposited data

Results flagged for a closer look

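Among 30 groups of 5 libraries examined for a sample far from the others, 3 had one, where chance gives about 1 in 20. The flagged sums share libraries, and sham rat 1 gave more than 1 of them. They are therefore not independent, and whether 3 exceeds chance was not tested. The hippocampus-enriched genes summed to 2145 CPM in sham rat 1, and to 1731 CPM in TBI rat 6, each far above the rest of its group. The cortex-enriched genes summed to 817 CPM in sham rat 1.

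The responses of the thalamus and cortex differed for 78 genes by the interaction of area and treatment, and 49 with the rat as a block. ENSRNOG00000016179 was one of them, with a difference of 4.05 on the log2 scale between its change in the thalamus and in the cortex.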

How the results depend on the processing

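The number of thalamic genes past the threshold depended on the tool, on the threshold and on single rats. Beside 626 higher and 308 lower, DESeq2 gave 1138 and 812, voom with quality weights 1342 and 1350, one fit for 3 brain areas (all 10 hippocampal libraries included) 1661 and 1796, and an adjusted p under 0.10 gave 1156 and 804. With single rats left out, edgeR gave 0 to 1333 higher and 0 to 1088 lower, DESeq2 gave 656 to 1655 and 346 to 1580, and edgeR at 0.10 gave 460 to 1891 and 164 to 1667. Within these ranges, DESeq2 gave 1116 and 582 without rat 1, 1250 and 1204 without rat 2, 1016 and 528 without rat 4, 988 and 722 without rat 9, and 835 and 515 without rat 10. At 0.10, edgeR gave 1106 and 564 without rat 1, 1405 and 1267 without rat 2, and 992 and 591 without rat 9. RLE scaling (627 and 314) and no filter (577 and 261) stayed close. The interaction of area and treatment gave 78 genes, 49 in the paired fit with the rat as replicate block, 49 without a filter, 208 with DESeq2 and 35 to 110 without single rats. The 38 fallen thalamus-enriched genes became 66 with DESeq2 and 74 with voom. With single rats left out they were 0 to 61 in edgeR and 37 to 76 in DESeq2. The causes were not tested. Within the thalamus, no paired analysis was possible because no rat is in both groups. The libraries held 21992859 counts or more, and the median standard error of the log2 fold change was 0.35 below 1 CPM and 0.13 above 100 CPM.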
